A study of Mus musculus with 9 samples.

Results

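Transcript levels of 8 genes used to recognise hepatic stellate cells (HSCs) were followed across 3 populations of mouse activated HSCs (aHSCs). The genes were Des, Gfap, Vim, Nes, Hgf, Reln, Ngfr and Cygb. Members were chosen by symbol, as every probe that the deposited array tables assign to a listed gene, which gave 19 of 45281 gene probes and 8 of 30869 gene symbols. A filter on detection kept 10 of these probes and left 7 of the genes to be tested, since Gfap had no probe above background on any array. Each group had 3 samples, and the RNA of each was read on a single Illumina MouseWG-6 v2.0 BeadChip array.

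All cells came from WT1GFP/+ mice, labelled as male and of the C57/Bl6 strain, in which green fluorescent protein (GFP) is knocked in at 1 copy of the WT1 gene and so reports WT1 expression. WT1-high cells (GFP high, replicates 1, 8 and 29) and WT1-intermediate cells (GFP low, replicates 1, 8 and 30) were sorted directly from livers of animals given repeated intraperitoneal carbon tetrachloride (CCl4), a hepatotoxin that causes fibrosis. WT1-negative cells (GFP negative, replicates 3, 11 and 14) were sorted after quiescent HSCs had been cultured on plastic for 7 days. Every comparison with the WT1-negative group therefore sets injured liver against culture as well as WT1-positive against WT1-negative cells, and these cannot be told apart. No probe carried the symbol Wt1, so the gene that defined the gates was not analysed here. The WT1-high and WT1-intermediate groups are together called WT1-positive.

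HSCs are the vitamin A-storing pericytes of the liver sinusoid, which become contractile, matrix-producing myofibroblasts when the liver is injured. They are recognised by an unusual mixture of genes. These are intermediate filament proteins of muscle, mesenchyme, glia and neural progenitors (desmin, vimentin, glial fibrillary acidic protein and nestin), the secreted factors HGF and reelin, the p75 neurotrophin receptor and the globin cytoglobin. Intermediate filaments form the stress-bearing part of the cytoskeleton. HGF acts on hepatocytes through its receptor Met, reelin on cells with Lrp8 and Vldlr, and p75, encoded by Ngfr, binds neurotrophins made by neighbouring cells.

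Mean signal per array was 147 to 289, and an array detected 17253 to 19774 gene probes (38.1% to 43.7%). A probe counted as detected on an array where its detection p, the share of negative control probes brighter than it, was under 0.05. Levels below are log2 values after background correction and quantile normalization, with an offset of 16 added before the log, so a probe at background lies a little above 4. Probes differ in how strongly they bind, so the level of 1 gene says nothing of its abundance beside another gene. Differences are in log2 units, and an adjusted p (limma, Benjamini-Hochberg over all 20573 probes tested in a comparison) under 0.05 is termed a call. In sorted bulk RNA, fewer cells of a type and less RNA per cell cannot be told apart.

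The probes are single strands of 50 bases, and a gene with several probes is followed at several places of its transcript. The sequences below are shown for genes in which probes of 1 gene gave unlike answers or were in part undetected. They are the bright probe of Vim, the dimmer probe of Nes, and a pair of Ngfr probes, in which capitals mark the 49 bases that the pair shares. The deposited tables place the printed probe of Vim on chromosome 2 and that of Nes on chromosome 3. They place Ngfr on chromosome 11 by its brightest probe and give no chromosome for the printed pair. They name no genome build, so no coordinates, exons or untranslated regions are given.
Vim ILMN_2451022: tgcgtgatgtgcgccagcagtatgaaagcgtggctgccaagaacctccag
Nes ILMN_2904590: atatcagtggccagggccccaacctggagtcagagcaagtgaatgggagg
Ngfr ILMN_2635314: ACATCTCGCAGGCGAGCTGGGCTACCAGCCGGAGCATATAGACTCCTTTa
Ngfr ILMN_1231408: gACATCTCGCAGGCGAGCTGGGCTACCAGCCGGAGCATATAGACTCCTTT

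The markers did not move together. Each gene was represented by its probe with the highest mean. In WT1-high against WT1-intermediate cells, 2 of 7 markers were called, with Des higher and Hgf lower in WT1-high cells, where 3.84% of the 14659 genes tested were called (0.962% higher, 2.88% lower). In WT1-high against WT1-negative cells, 4 of 7 were called, with Cygb higher and Nes, Hgf and Ngfr lower in WT1-high cells, where 59.8% of genes were called (27.7% higher, 32.1% lower). In WT1-intermediate against WT1-negative cells, 4 of 7 were called, with Cygb higher and Des, Nes and Ngfr lower in WT1-intermediate cells, where 57.9% of genes were called (26% higher, 31.9% lower). Against the WT1-negative group the share of markers called was thus near that of all genes. The median difference of the 7 markers was -0.15, 0.05 and -0.14 in the order given, beside 0.04, -0.07 and -0.10 for all genes. Groups did not overlap for 3, 3 and 4 markers, beside 20.4%, 68.7% and 65.7% of genes.

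**Figure D1:**
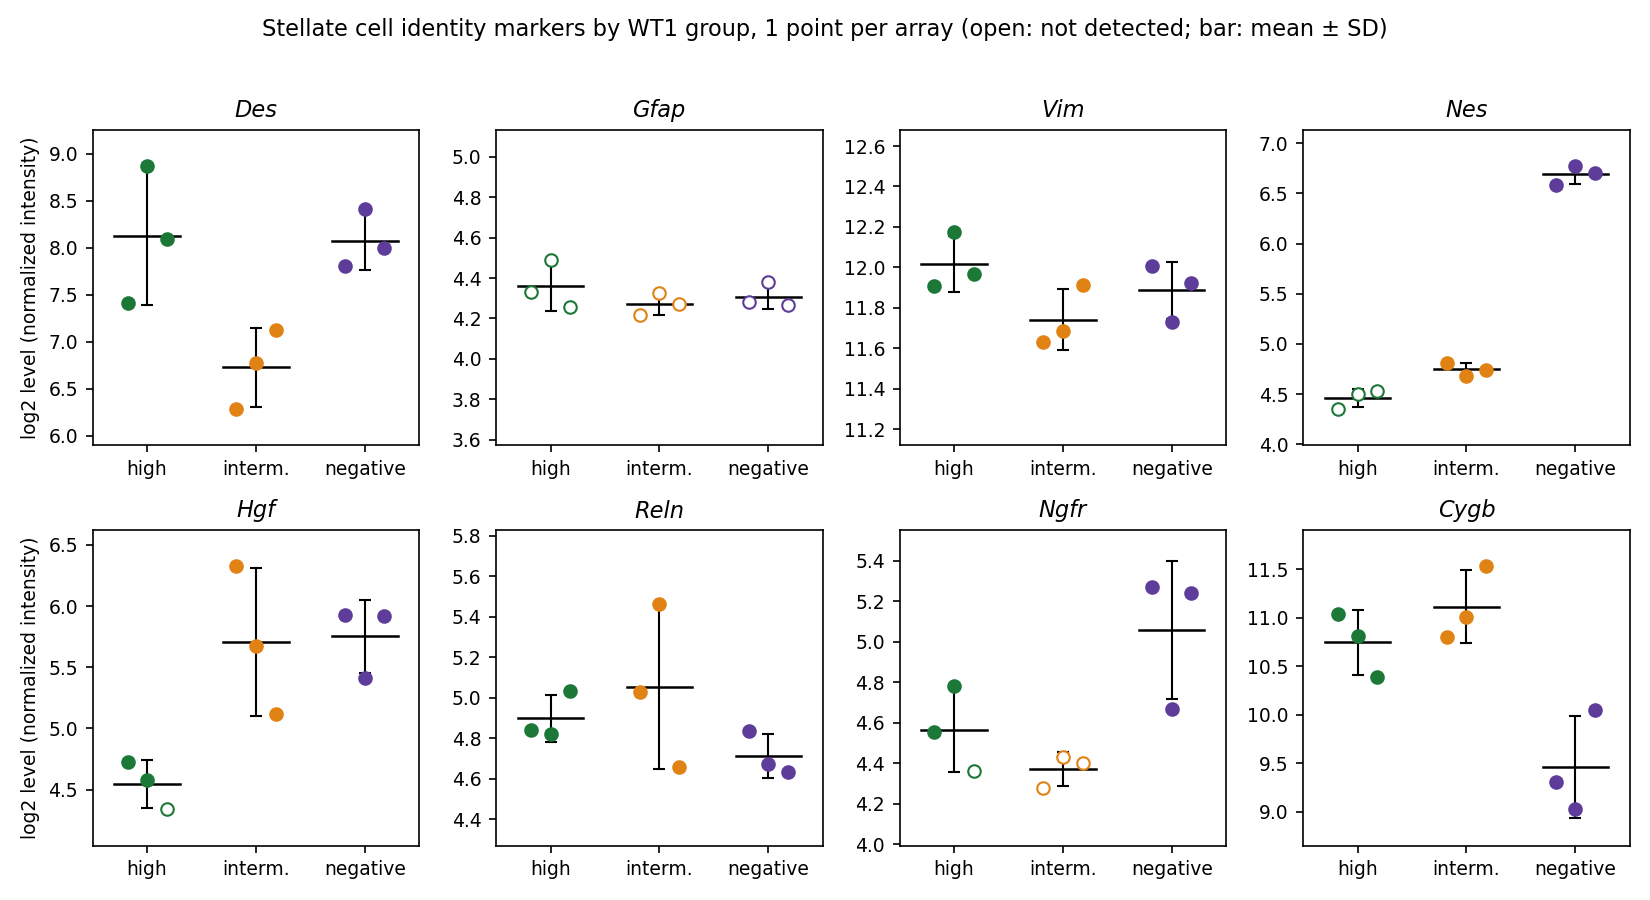
Log2 level of each stellate cell identity marker (brightest probe) on each of the 9 arrays, by WT1 group. Filled points were detected and open points were not, the horizontal line and error bar give the mean and SD over 3 arrays, and each panel has its own vertical scale. Nes stood highest on the 3 WT1-negative arrays and Cygb highest on the 6 WT1-positive arrays, Des was lowest on the 3 WT1-intermediate arrays, and all 9 points of Gfap are open.

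Desmin, the intermediate filament protein of muscle and of HSCs, was lowest in WT1-intermediate cells. Des lay at 7.41, 8.87 and 8.10 on WT1-high arrays 1, 8 and 29. It lay at 6.29, 6.78 and 7.13 on WT1-intermediate arrays 1, 8 and 30, and at 7.80, 8.42 and 8.00 on WT1-negative arrays 3, 11 and 14. Every WT1-intermediate array lay below every other array, whereas the WT1-high and WT1-negative arrays overlapped. Deposited intensities, before normalization, were 120 to 180 in WT1-intermediate, 243 to 769 in WT1-high and 323 to 470 in WT1-negative cells. Mean intensity over all probes was also lowest in WT1-intermediate cells, at 147 to 221. It was 231 to 289 on WT1-high and 246 to 256 on WT1-negative arrays, so the unnormalized values of Des add no separate support.

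The mean of Des was 8.12 ± 0.73 (SD, n = 3) in WT1-high, 6.73 ± 0.42 in WT1-intermediate cells and 8.07 ± 0.31 in WT1-negative cells. Des was 2.63-fold higher in WT1-high cells than in WT1-intermediate cells, a difference of 1.39 ± 0.33 (SE, adjusted p = 0.0454). It was 2.54-fold lower in WT1-intermediate cells than in WT1-negative cells, a difference of -1.34 ± 0.33 (SE, adjusted p = 0.00511), which became -0.86 without background correction. WT1-high and WT1-negative cells differed by 0.05, with a 95% interval of -0.68 to 0.79 (adjusted p = 0.903).

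The call of Des between the WT1-positive groups was lost in 12 of 21 alternative settings, with differences of 0.91 to 1.90. It was lost without WT1-high array 8 (1.02, adjusted p = 0.139) or 29 (1.40, 0.103), without WT1-intermediate array 1 (1.18, 0.172) or 8 (1.43, 0.0831), and without WT1-negative array 3 (0.0586), 11 (0.0503) or 14 (0.0657). It was also lost when only the 2 groups compared were fitted (adjusted p = 0.111) or when no filter was applied (0.18). It was kept when in vivo arrays were paired by a replicate block, fixed (1.61, adjusted p = 0.0245) or random (1.46, 0.00795). A random block that took 29 and 30 as 1 animal kept it too (1.39, 0.00874).

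Vimentin, the general mesenchymal filament protein, was, by its bright probe, the tested marker that varied least. Vim lay at 11.91, 12.17 and 11.97 on WT1-high arrays 1, 8 and 29. It lay at 11.63, 11.68 and 11.91 on WT1-intermediate arrays 1, 8 and 30, and at 12.01, 11.73 and 11.92 on WT1-negative arrays 3, 11 and 14. The 3 groups overlapped, and all 9 arrays lay within 0.54.

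The 95% interval of the Vim difference ran from -0.06 to 0.61 for WT1-high against WT1-intermediate, from -0.20 to 0.46 for WT1-high against WT1-negative and from -0.48 to 0.19 for WT1-intermediate against WT1-negative cells. None of these was called (adjusted p = 0.392, 0.476 and 0.430). Under median scaling in place of quantile normalization, Vim was called in WT1-high against WT1-intermediate cells (0.68, adjusted p = 0.0412) and in WT1-intermediate against WT1-negative cells (-0.57, adjusted p = 0.0185). That scaling moved the median of all probes to 0.40 and -0.41 in these comparisons, from 0.05 and -0.13. A second Vim probe, drawn from a RIKEN cDNA, was detected on 1 array of each group, lay between 4.26 and 5.42 and was called in no comparison.

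Nestin, a filament protein of neural and muscle progenitors that is also made by activated HSCs, was highest in the cultured WT1-negative cells. Nes lay at 4.36, 4.50 and 4.53 on WT1-high arrays 1, 8 and 29, on none of which it was detected. It was detected on all WT1-intermediate arrays, at 4.81, 4.69 and 4.74 for replicates 1, 8 and 30, and on all WT1-negative arrays, at 6.59, 6.77 and 6.70 for replicates 3, 11 and 14. The 3 groups did not overlap. The WT1-negative arrays stood far above the rest, while the gap between the WT1-positive groups was small.

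Nes was at least 4.41-fold lower in WT1-high than in WT1-negative cells, against the lowest signal that counted as detected on the WT1-high arrays, with a measured difference of -2.23 ± 0.13 (SE, adjusted p = 1.65e-07). It was 3.84-fold lower in WT1-intermediate cells than in WT1-negative cells, a difference of -1.94 ± 0.13 (SE, adjusted p = 6.07e-07). The WT1-positive groups were not called different (adjusted p = 0.310), and WT1-high cells, undetected for Nes, allow only a bound there. Both calls held in all 19 alternatives that gave a value. The differences shrank to -0.79 and -0.72 without background correction and to -1.29 and -1.17 with an offset of 50.

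The probe of Nes shown above was dimmer. It lay between 4.23 and 4.57 on the 6 WT1-positive arrays, of which only WT1-high array 8 was detected, and between 4.81 and 5.28 on the 3 WT1-negative arrays. It placed the groups in the same relation to culture, at -0.77 in WT1-high (adjusted p = 0.00235) and at least 1.47-fold lower in WT1-intermediate cells (adjusted p = 0.00196). The size of the difference was smaller than for the bright probe, and the gap between the WT1-positive groups was not seen (0.03).

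Glial fibrillary acidic protein, the filament of astrocytes and a classical label of HSCs, was not detected. Its 2 probes lay between 4.14 and 4.49 on the 9 arrays, and the lowest detection p values were 0.0577 and 0.244. The groups could not be ranked at this signal, and the arrays give no level for Gfap in any of the 3 populations.

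Of the other intermediate filament and nuclear lamin genes, 11 of the 14 on the array were tested, and differences from the cultured cells were mostly upward. None was called between the WT1-positive groups, the largest differences being 0.70 for Krt7 and 0.64 for Krt19, both epithelial and mesothelial keratins. That count reached 6 under median scaling and 0 to 2 under the other 20 alternatives. Against WT1-negative cells, 10 of 11 were called in WT1-high cells (8 higher, 2 lower, median 1.54) and 11 of 11 in WT1-intermediate cells (8 higher, 3 lower, median 1.42). The largest differences in WT1-high cells were in Krt19 (at least 64.6-fold higher), Krt8 (4.76), Krt7 (4.75) and Krt18 (4.57). In WT1-intermediate cells they were in Krt19 (at least 41.4-fold higher), Krt18 (4.30), Krt8 (4.23) and Prph, which encodes peripherin (at least 14.5-fold higher). Krt8, Krt18 and Krt19 are also on the list of mesothelial genes described below. Beside the counts of this and later lists, 59.8% and 57.9% of all genes were called against WT1-negative cells. Between the WT1-positive groups the share of all genes was 3.84%.

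**Figure D2:**
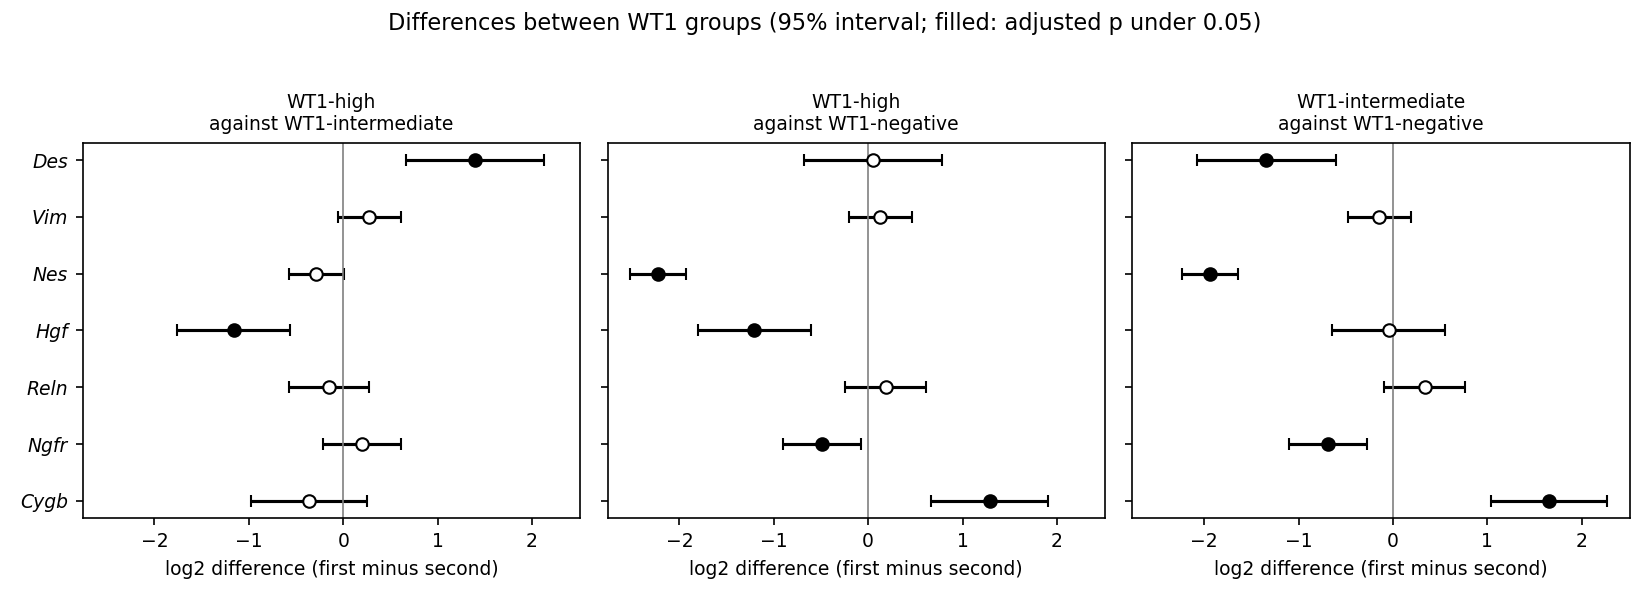
Log2 difference of the 7 tested markers (brightest probe) in the 3 comparisons, first group minus second, with its 95% interval over 9 arrays. Filled points have an adjusted p under 0.05. Nes was undetected in WT1-high and Ngfr in WT1-intermediate cells, so their points in comparisons with these groups measure a distance to background. Nes lay furthest to the left in both comparisons with WT1-negative cells and Cygb furthest to the right, at 1.29 and 1.65, and the points of Vim and Reln are open in all 3 panels.

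Hgf, which encodes hepatocyte growth factor, the main mitogen that HSCs supply to hepatocytes, was lowest in WT1-high cells by its brightest probe. That probe comes from a RIKEN cDNA with no Entrez gene in the deposited annotation. It lay at 4.72, 4.58 and 4.34 on WT1-high arrays 1, 8 and 29, of which 29 was not detected. It lay at 6.32, 5.67 and 5.12 on WT1-intermediate arrays 1, 8 and 30, and at 5.93, 5.41 and 5.92 on WT1-negative arrays 3, 11 and 14. All 3 WT1-high arrays lay below all others, and the WT1-intermediate and WT1-negative arrays overlapped.

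Hgf was 2.23-fold lower in WT1-high cells than in WT1-intermediate cells, a difference of -1.16 ± 0.27 (SE, adjusted p = 0.0410), and 2.31-fold lower than in WT1-negative cells, a difference of -1.21 ± 0.27 (SE, adjusted p = 0.00269). WT1-intermediate and WT1-negative cells differed by -0.05 (95% interval -0.64 to 0.55, adjusted p = 0.889). The difference to WT1-negative cells was called in all 19 alternatives, at -0.36 without background correction, -0.62 with an offset of 50 and -0.78 as the mean of the kept probes.

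The call between the WT1-positive groups was lost in 13 of 20 alternatives. It was lost without WT1-high array 1 (-1.24, adjusted p = 0.0657), 8 (-1.12, 0.129) or 29 (-1.06, 0.121), without WT1-intermediate array 1 (-0.87, 0.117) or 8 (-1.17, 0.0776), and without WT1-negative array 3 (0.0558) or 14 (0.0580). The difference was -0.35 without background correction, -0.61 with an offset of 50 and -0.81 as the mean of the kept probes, and none of these was called (adjusted p = 0.145, 0.108 and 0.0873). The call was kept when in vivo arrays were paired by a fixed or random replicate block.

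The RefSeq probe of Hgf was near background, at 4.32 to 4.44 and undetected in WT1-high cells, 4.35 to 5.20 in WT1-intermediate cells (2 of 3 arrays detected) and 4.48 to 4.90 in WT1-negative cells (2 of 3 detected). It was not called in any comparison. Its differences were -0.47 for WT1-high against WT1-intermediate (adjusted p = 0.282), -0.35 for WT1-high against WT1-negative (adjusted p = 0.172) and 0.12 for WT1-intermediate against WT1-negative cells (adjusted p = 0.638). The remaining probe of Hgf was undetected on every array.

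Of 10 genes for the HGF receptor, its activators and their inhibitors, 9 were tested. None was called between the WT1-positive groups, where the largest differences were -1.56 for Plau, which encodes urokinase (adjusted p = 0.0747), and 0.54 for Mst1r, the receptor of the HGF-like protein (adjusted p = 0.120). Against WT1-negative cells, 5 were called in WT1-high cells (3 higher, 2 lower, median -0.13) and 4 in WT1-intermediate cells (3 higher, 1 lower, median 0.05). Of all genes 59.8% and 57.9% were called, beside 55.6% and 44.4% of this list. Mst1r was higher by 3.94 and 3.40, Plat, which encodes tissue plasminogen activator, by 1.49 and 1.25, and the protease inhibitor gene Spint2 by at least 1.95-fold and 1.56-fold, whereas Plau was at -2.87 and -1.31. Met itself, named for its role, was detected on 2 WT1-high, 1 WT1-intermediate and 0 WT1-negative arrays and was called in no comparison.

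Reln, which encodes reelin, a secreted glycoprotein that guides migrating neurons and is made by quiescent HSCs, was measured by 1 probe just above background. It lay at 4.84, 4.82 and 5.03 on WT1-high arrays 1, 8 and 29. It lay at 5.03, 5.46 and 4.66 on WT1-intermediate arrays 1, 8 and 30, and at 4.84, 4.67 and 4.63 on WT1-negative arrays 3, 11 and 14. The groups overlapped, with the spread widest among WT1-intermediate arrays.

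Reln was detected on all 9 arrays and called in no comparison (adjusted p = 0.746, 0.433 and 0.159). Its 95% interval ran from -0.58 to 0.28 for WT1-high against WT1-intermediate, from -0.24 to 0.61 for WT1-high against WT1-negative and from -0.09 to 0.76 for WT1-intermediate against WT1-negative cells. The last difference, 0.34, rose to 0.56 and was called under cyclic loess normalization (adjusted p = 0.0222) and without WT1-intermediate array 30 (adjusted p = 0.0267). The other 4 probes of Reln lay between 4.16 and 4.49 and were undetected on every array.

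All 8 genes of the reelin receptors and signal transducers were tested. None was called between the WT1-positive groups, the largest differences being 0.50 for the kinase gene Src and -0.45 for the receptor gene Vldlr. Against WT1-negative cells, 6 were called in WT1-high cells (2 higher, 4 lower, median -0.47) and 5 in WT1-intermediate cells (2 higher, 3 lower, median -0.49). Of all genes 59.8% and 57.9% were called, beside 75% and 62.5% of this list. The receptor gene Lrp8 showed the largest differences, -2.03 (adjusted p = 2.1e-05) and -1.75 (adjusted p = 7.73e-05). In WT1-high cells Src was at 1.40, Pafah1b1, which encodes the dynein regulator LIS1, at 0.87 and Vldlr at -0.82. In WT1-intermediate cells Src was at 0.90 and the adaptor genes Crkl and Crk at -0.80 and -0.79. Dab1, the intracellular adaptor of the reelin receptors, was detected on 2, 1 and 0 arrays of the 3 groups and was called in none.

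**Figure D3:**
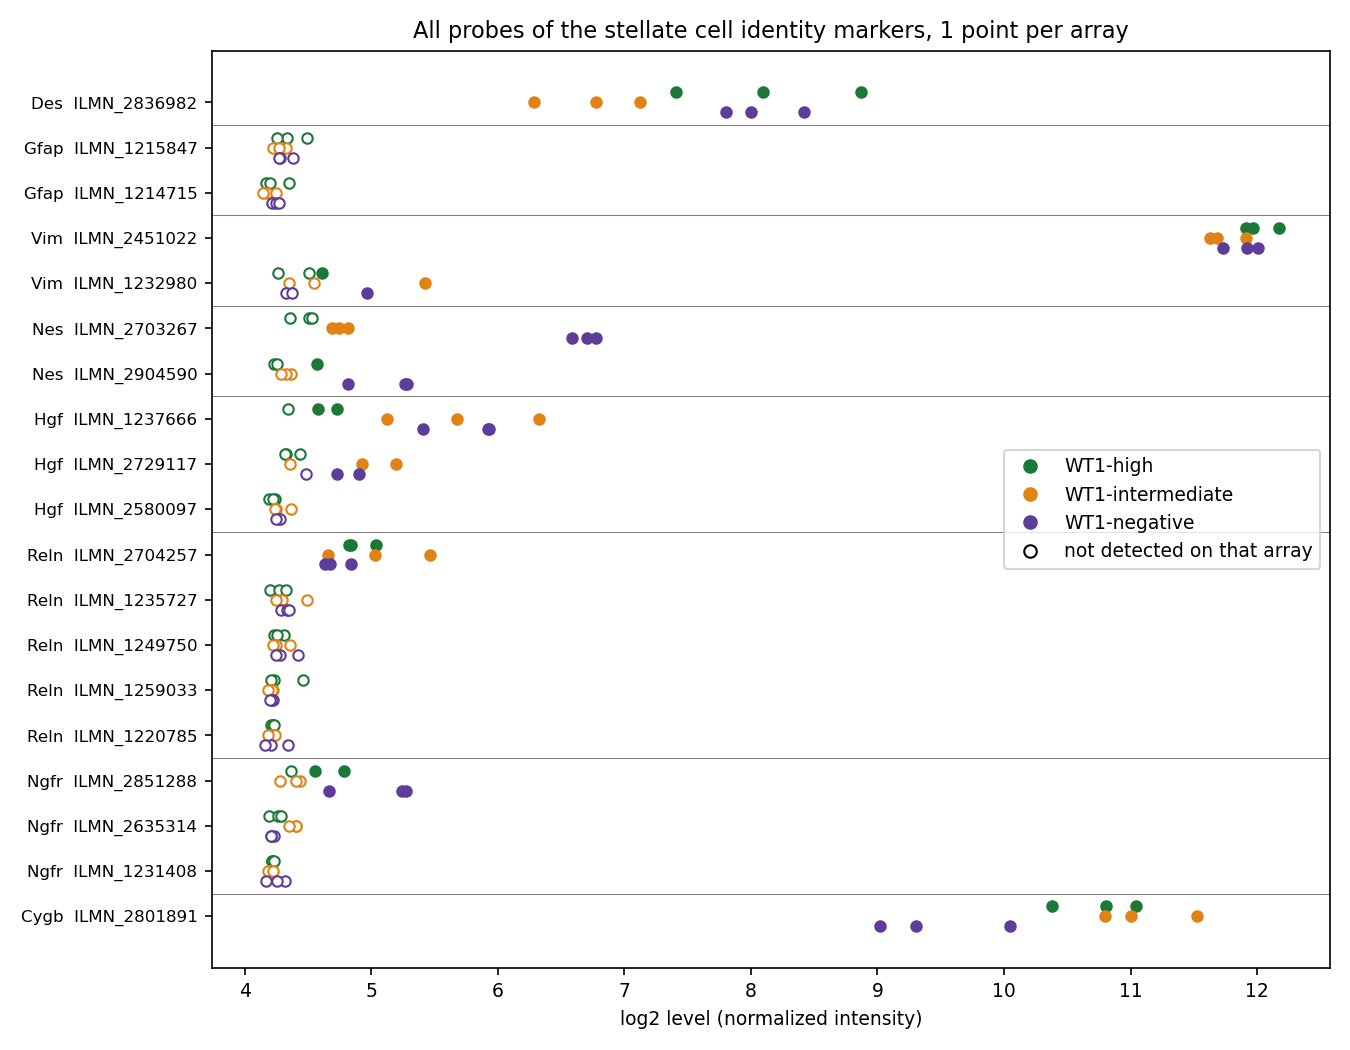
Log2 level of all 19 probes of the 8 markers on the 9 arrays, 1 row per probe and 1 point per array, coloured by WT1 group, with open points for arrays on which the probe was not detected. The bright probes of Vim, Cygb and Des stood clear of background on all arrays, while 9 probes, including both of Gfap, 4 of Reln and 2 of Ngfr, were open on all 9 arrays.

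Ngfr, which encodes the p75 neurotrophin receptor, was near background and highest in cultured cells. It lay at 4.56, 4.78 and 4.36 on WT1-high arrays 1, 8 and 29, of which 29 was not detected. It lay at 4.28, 4.43 and 4.40 on the WT1-intermediate arrays, none detected, and at 5.27, 4.67 and 5.24 on WT1-negative arrays 3, 11 and 14, all detected. WT1-intermediate arrays lay below WT1-negative ones, but WT1-high array 8 lay above WT1-negative array 11.

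Ngfr was at least 1.42-fold lower in WT1-intermediate cells than in WT1-negative cells, with a measured difference of -0.69 ± 0.19 (SE, adjusted p = 0.00865). That call was lost under cyclic loess (-0.47, adjusted p = 0.0552), and the difference was -0.19 without background correction and -0.31 with an offset of 50. WT1-high cells were 1.41-fold below WT1-negative cells, at -0.49 ± 0.19 (SE, adjusted p = 0.0411). The WT1-positive groups were not called different (adjusted p = 0.649), and WT1-intermediate cells, undetected for Ngfr, allow only a bound there.

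The call of Ngfr in WT1-high against WT1-negative cells was lost in 10 of 19 alternatives. Among single arrays it was lost without WT1-high array 1 (-0.48, adjusted p = 0.0870) or 29 (-0.39, 0.131) and without WT1-negative array 3 (-0.39, 0.147) or 14 (-0.40, 0.148). Under median scaling and cyclic loess the adjusted p was 0.149 and 0.170, and the difference without background correction or with an offset of 50 was -0.13 and -0.23. The pair of Ngfr probes printed above, which are nearly the same sequence moved by 1 base, were undetected on every array, at 4.17 to 4.41.

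Of 12 genes for neurotrophins, their receptors and partners of p75, 7 were tested. Ntrk2, which encodes the BDNF receptor TrkB, was the 1 gene called between the WT1-positive groups. It was undetected in WT1-high and WT1-negative cells and detected on all WT1-intermediate arrays, so that WT1-intermediate cells exceeded WT1-high cells by at least 1.62-fold (adjusted p = 0.0086) and WT1-negative cells by at least 1.55-fold (adjusted p = 0.000484). Against WT1-negative cells, 4 were called in WT1-high cells (1 higher, 3 lower, median -0.70) and 3 in WT1-intermediate cells (1 higher, 2 lower, median -0.30, or -0.12 with undetected genes at their bound). Of all genes 59.8% and 57.9% were called, beside 57.1% and 42.9% of this list. Sort1, the gene of the p75 co-receptor sortilin, was at -2.0 and -1.54, and Ngfrap1, encoding a p75-interacting cell death executor, at -1.11 and -1.36. Maged1, which encodes another p75-binding protein, was higher by 0.86 and Bdnf lower at -0.70 in WT1-high cells. Ntf3, Ntf5, Rtn4r and Lingo1 were among those that did not pass the filter.

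Cygb, which encodes cytoglobin, a haem protein of the HSC lineage that binds oxygen and scavenges nitric oxide, was the marker that was higher in both WT1-positive groups. It lay at 11.04, 10.81 and 10.38 on WT1-high arrays 1, 8 and 29. It lay at 10.80, 11.00 and 11.53 on WT1-intermediate arrays 1, 8 and 30, and at 9.30, 9.02 and 10.05 on WT1-negative arrays 3, 11 and 14. The WT1-positive groups overlapped each other, and all 6 of their arrays lay above the WT1-negative arrays.

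Mean levels of Cygb were 10.74 ± 0.33 (SD, n = 3) in WT1-high, 11.11 ± 0.38 in WT1-intermediate cells and 9.46 ± 0.53 in WT1-negative cells. Cygb was 2.44-fold higher in WT1-high (1.29 ± 0.28 SE, adjusted p = 0.00222) and 3.14-fold higher in WT1-intermediate cells (1.65 ± 0.28 SE, adjusted p = 0.000441) than in WT1-negative cells. Both calls held in all 20 alternatives, at 1.06 to 1.58 and 1.11 to 1.95. WT1-high and WT1-intermediate cells differed by -0.37 (95% interval -0.98 to 0.25, adjusted p = 0.555), and the sign turned under median scaling (0.066) and with a fixed replicate block (0.025).

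Of the other globins and the reductases that work with cytoglobin, 6 of the 7 on the array were tested. None was called between the WT1-positive groups, where Hba-a1 and Hbb-b1, the haemoglobin genes, were at -0.53 and -0.51. Mb, which encodes muscle myoglobin, was at least 5.86-fold lower in WT1-high than in WT1-negative cells (adjusted p = 2.19e-06) and at -2.60 in WT1-intermediate cells (adjusted p = 4.48e-06). Cyb5b, a cytochrome b5 gene, was lower at -0.77 and -0.95, and the reductase gene Cyb5r3 was 0.61 higher in WT1-high cells. List medians were 0.22 (0.07 with undetected genes at their bound) and 0.09 against WT1-negative cells.

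Other genes used to recognise HSCs set the populations apart in part. Of 18, 13 were tested. Lhx2, Rgs5, Hhip and Vipr1 were undetected on every array, and Lrat, which encodes the retinol-esterifying enzyme that marks vitamin A storage, was detected on 1 WT1-high array only. Between WT1-high and WT1-intermediate cells 3 were called, all lower in WT1-high cells, as Hgf was. These were the lipogenic receptor gene Pparg (-1.72, adjusted p = 0.0408), the transcription factor gene Tcf21 (-1.62, 0.00321) and the growth factor receptor gene Pdgfrb (-1.28, 0.00542), and the median was 0.02.

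Against WT1-negative cells 13 of these 13 were called in WT1-high cells (7 higher, 6 lower, median 0.83) and 10 in WT1-intermediate cells (8 higher, 2 lower, median 0.87). With undetected genes at their bound, the medians were 0.49 and 0.55. Colec11, which encodes a collectin, was at least 7.63-fold and 6.38-fold higher, and Dcn, which encodes the proteoglycan decorin, was higher by 2.26 and 2.58. Ecm1 was higher by 2.07 and Pparg lower at -1.95 in WT1-high cells, and Pdgfra was higher by 1.86 and the chemokine gene Cxcl12 lower at -1.97 in WT1-intermediate cells.

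Of 12 genes that rise when HSCs activate, 11 were tested. Acta2, which encodes alpha smooth muscle actin, was 0.76 higher (adjusted p = 0.0358) and Spp1, which encodes osteopontin, lower at -2.03 (adjusted p = 0.0159) in WT1-high cells than in WT1-intermediate cells. The number of calls in this list was 0 to 3 over 21 alternatives and moved by over 1.5 times in 11 of them. It was 0 without WT1-high array 8, without the filter and when only the groups compared were fitted. Against WT1-negative cells, 10 were called in WT1-high cells (4 higher, 6 lower, median -0.88) and 8 in WT1-intermediate cells (3 higher, 5 lower, median -0.55). Of the fibrillar collagen genes, Col3a1 and Col1a2 were higher by 4.55 and 2.69 in WT1-high and by 4.37 and 2.39 in WT1-intermediate cells. Col1a1 went the other way, at -1.40 (adjusted p = 0.00678) and -1.26 (adjusted p = 0.0120). The gelatinase gene Mmp2 was higher by 2.55 and 3.20. Spp1 was at -2.59 in WT1-high and Acta2 at -2.55 in WT1-intermediate cells.

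Markers of other cell types moved along with the groups. The summed level of macrophage genes was lowest in WT1-high cells, as Hgf was. Of 13, 8 were called lower in WT1-high cells than in WT1-intermediate cells and none higher (median -2.0), and their summed level was 2735 to 3732 in WT1-high, 8544 to 12850 in WT1-intermediate cells and 30315 to 36038 in WT1-negative cells. Against WT1-negative cells, 2 were higher and 8 lower in WT1-high cells (median -1.20), and 4 were higher and 5 lower in WT1-intermediate cells (median 0.10), so single genes did not all follow the sum. Between the WT1-positive groups Cd14 was not called (-0.78), and the complement genes C1qb and C1qc were at -2.55 and -2.62. The lysozyme gene Lyz1, named after its values were seen, had a mean of 9.01 in WT1-intermediate cells against 4.89 in WT1-high cells and 4.52 in the cultured cells. Clec4f and Ptprc, the latter the leukocyte gene CD45, were undetected on all WT1-negative arrays and Itgam on all WT1-high arrays. The part of these levels in the values of Hgf was not tested.

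Skeletal muscle genes were high in the WT1-negative cultures, where Nes and Mb were also highest. Of 16, 13 were tested and all 13 were lower in both WT1-positive groups (median -3.11 and -3.17, or -2.94 and -2.93 with undetected genes at their bound). The summed level of all 16 was 7580 to 11263 in WT1-negative cells, 331 to 369 in WT1-high and 384 to 469 in WT1-intermediate cells. Myl1 was at least 111-fold and 110-fold lower, Tnnc1 at least 70.6-fold lower in WT1-high cells, and Tnnt1 was at -4.79 and -4.00. Ckm, Myf5 and Pax7 were undetected on every array. Desmin and nestin are known muscle filaments, and the part of muscle transcripts in the values of Des, Nes and Mb was not tested.

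Of 8 smooth muscle genes, 5 were tested and none was called between the WT1-positive groups. The summed level of all 8 was 707 to 1170, 794 to 1061 and 1226 to 1684 in the order WT1-high, WT1-intermediate and WT1-negative. Against WT1-negative cells, 3 of the 5 were called in each comparison (1 higher, 2 lower). Actg2 was at least 17.2-fold lower in WT1-high cells and at -3.15 in WT1-intermediate cells. Schwann cell and glial genes bear on Gfap and Ngfr. Sox10 was detected on 1 array of 9, S100b, Erbb3, Cdh19 and Foxd3 on none, and the summed level was 494 to 592, 447 to 517 and 385 to 454. Mag, a myelin gene, was detected on all 9 arrays and was lower in WT1-high (-1.15, adjusted p = 0.000214) and WT1-intermediate cells (-0.84, adjusted p = 0.00208) than in WT1-negative cells, as Ngfr was. Aqp4, an astrocyte water channel gene, was detected on the 3 WT1-negative arrays and was at least 1.12-fold lower in WT1-intermediate cells (adjusted p = 0.0422). Mbp, another myelin gene that is also made outside glia, was higher by 0.92 and 0.64 in the WT1-positive groups. The summed level of this list largely follows Mbp, its brightest gene, with means of 8.47, 8.19 and 7.55. The part of these levels in the values of Ngfr was not tested. Of 9 cell cycle genes, 7 were tested, and all 7 were called lower in both WT1-positive groups. These 7 were high in the WT1-negative cultures, as Nes was. The summed level of all 9 was 2628 to 3263 there, against 254 to 430 in WT1-high and 229 to 290 in WT1-intermediate cells.

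Mesothelial genes were high in the groups in which Cygb was high. All 12 were higher in both WT1-positive groups, with medians of 6.51 and 6.03 (6.21 and 5.63 with the 6 genes undetected in WT1-negative cells at their bound), and the summed level was 36087 to 40621 in WT1-high, 21250 to 29171 in WT1-intermediate cells and 420 to 518 in WT1-negative cells. They include Krt8, Upk3b and Dmkn. Most portal fibroblast genes were higher in the same direction (7 of 9 in each comparison) and the list summed to 4375 to 6217, 6740 to 11390 and 1744 to 2900. Thy1 was called lower, at -0.89 (adjusted p = 0.00382) and -1.01 (adjusted p = 0.00182). The part of mesothelial and portal fibroblast genes in the values of Cygb was not tested.

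**Figure D4:**
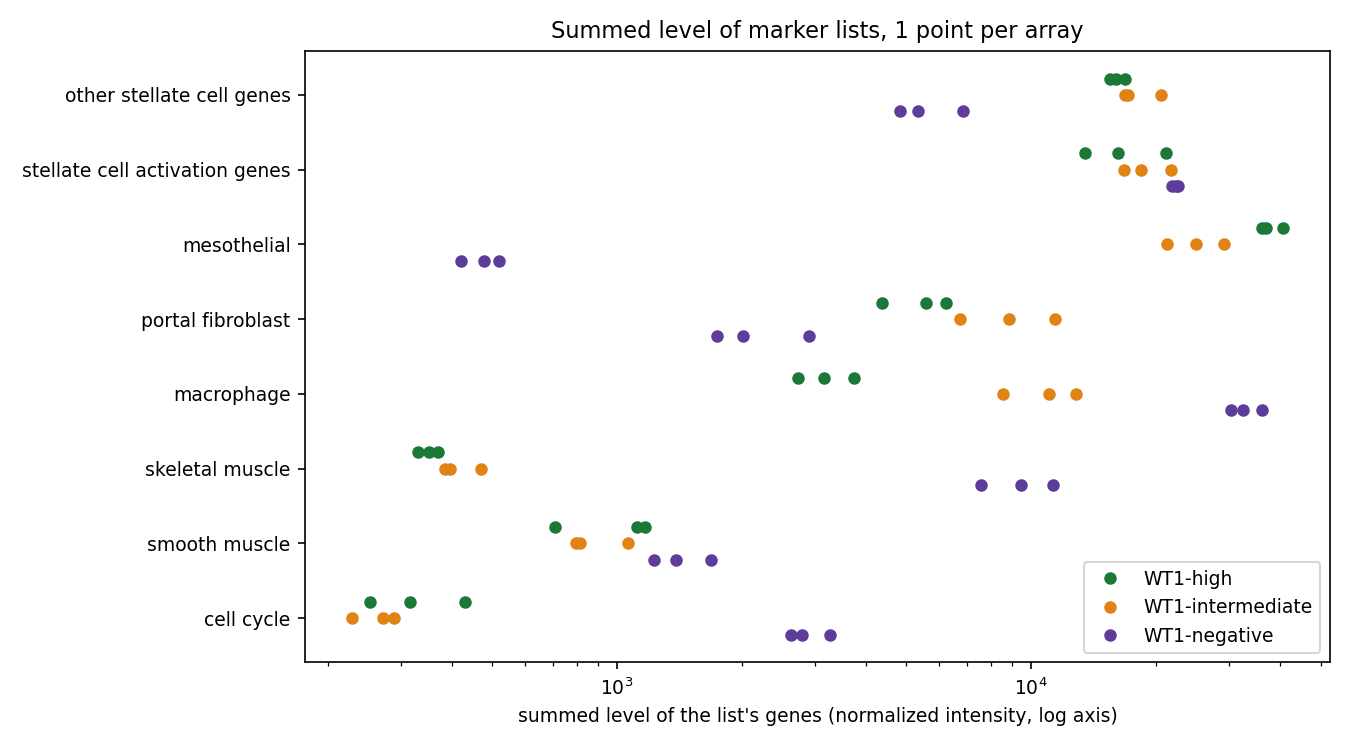
Summed normalized intensity of the genes of 8 marker lists on each array, on a log axis, 1 point per array, coloured by WT1 group. The sum of macrophage genes was lowest on WT1-high and highest on WT1-negative arrays, without overlap between groups, skeletal muscle and cell cycle genes were high on the 3 WT1-negative arrays, and mesothelial genes were high on the 6 WT1-positive arrays.

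The endothelial list (11 genes tested) had 2 genes lower in WT1-high cells than in WT1-intermediate cells. That count was 0 to 7 over 21 alternatives and moved by over 1.5 times in 16 of them. The list summed to 1136 to 1510, 1827 to 2278 and 1063 to 1420 in the 3 groups, a sum that mixes both directions. Against WT1-negative cells, 2 were called higher and 5 lower in WT1-high cells, and 3 higher and 6 lower in WT1-intermediate cells. Clec4g was higher by 2.76 and 3.45, whereas Emcn was at -2.95 and -2.43. Hepatocyte genes summed to 6642 to 9911, 3303 to 5303 and 3582 to 4950, with Alb, Fgb and Tat undetected everywhere. The sum largely follows Trf, the brightest of them, with means of 12.53, 11.72 and 11.89. Against WT1-negative cells, 6 of 7 tested were called higher in WT1-high cells (median 2.77, or 2.68 with undetected genes at their bound). In WT1-intermediate cells 5 were called higher (median 2.05, or 1.91), and none was called lower in either group. Cholangiocyte genes summed to 3024 to 3265, 1592 to 2405 and 232 to 344, largely through the keratins named above, and Epcam was undetected on every array. Erythroid genes summed to 100 to 196, 102 to 221 and 99 to 102.

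The genes most alike to each marker over the 9 arrays differed from marker to marker. Likeness is Pearson's r with the brightest probe, a description that mixes differences between groups with those within them. Des was most like C8g (r = 0.96), Sec22a and Klhl10, with 17 of 14658 genes over 0.9. Nes was most like Fcrls (r = 1.00), 0610031J06Rik and Ednrb, with 2316 genes over 0.9. Its pattern, high in the cultured WT1-negative cells and low in the WT1-positive cells from liver, was thus shared by many genes. Hgf was most like EG328314 (r = 0.99), Lilrb4 and Trim36, with 90 genes over 0.9.

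Ngfr was most like 4933402K11Rik (r = 0.98), Nxt2 and Ppm1d, and Cygb like LOC100041194 (r = 0.98), LOC98434 and Nfat5, with 140 and 172 genes over 0.9. Vim was most like AW061290 (r = 0.96), Ube2g1 and Syap1, and Reln like Pdcd1lg2 (r = 0.92), Sytl4 and B230213E18Rik, with 7 genes each over 0.9. Among the markers themselves, Nes and Cygb ran most opposite over the 9 arrays (r = -0.86) and Nes and Ngfr most alike (r = 0.74), followed by Des and Vim (r = 0.71).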

How the data were processed

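The authors exported unnormalised probe profiles from BeadStudio, and each deposited profile gives a linear intensity for every probe and array. Deposited detection p-values were used for 8 arrays. Intensities were the same in another deposited table (largest difference 0). The in vivo tables number 1 WT1-intermediate column 29 where the labels have 30, and its intensities were used as replicate 30, since no other array of the group was unassigned. For that array the detection p was computed from its negative controls, a calculation that on the other 8 arrays differed from the deposited p-value by at most 0.00107 and gave 100% of the same detection calls.

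Intensities of 45281 gene probes went through neqc of limma 3.58.1 (R 4.3.3), which takes the background from 936 negative controls, adds an offset of 16, applies quantile normalization and returns log2 values. This follows the authors' outline. The 20573 probes detected (p under 0.05) on 3 or more of 9 arrays were kept, a filter that the methods do not state. A linear model with 3 groups was fitted to 9 arrays, with each comparison tested by the moderated statistic of limma, two-sided, with Benjamini-Hochberg adjustment. The number of arrays limits the precision.

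A gene was followed by its brightest kept probe. A group undetected on all its arrays gives a bound, taken per array as the higher of the lowest signal of a detected probe and the probe's own, and written "at least". Of 195 list genes, 188 matched a symbol, 1 an older symbol and 3 an Entrez gene ID, and 3 were not matched. The summed level of a list adds normalized intensities over its genes.

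The members and the lists were chosen with earlier results of these data known. Named genes were all members, up to 4 called genes with the largest differences per partner list and comparison (the 2 largest where none was called), up to 3 genes by mean level and those at background per list of another cell type, and the 3 most like each member. Met, Dab1, Lrat and Sox10 were added for their role after values were seen.

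Livers of 3 animals gave the in vivo arrays, and same-numbered arrays deviated together over probes from their group means (r = 0.35 for number 1, 0.34 for number 8 and 0.47 for 29 with 30, against -0.39 to 0.03 for other pairs). Deviations from a group mean cancel within the group, so a positive r in some pairs brings down the r of others. The study's methods take replicates as separate animals in vivo and separate cell isolations in vitro. Alternatives were background correction, normalization, offset, filter, arrays fitted, array weights, replicate block, choice of probe, a 2-fold requirement and leaving out each array. The steps were tested on simulated data with changes of 2 log2 units in probes well above background. Recovery of smaller changes, or of changes near background, was not tested. Figures were drawn with matplotlib 3.10.9. Some list genes and a probe sequence are not reported here.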

Additional observations from a re-analysis of the deposited data

How the results depend on the processing

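Counts of markers called are given first. For WT1-high against WT1-intermediate cells, the 2 calls became 0 without background correction, with an offset of 50, without the filter and when only the groups compared were fitted. They became 1 on probes detected on all arrays (Des, with 4 markers tested), with array weights (Hgf) and with the mean of the kept probes (Des), and 0 to 2 when 1 array was left out. For WT1-high against WT1-negative cells, the 4 calls became 1 (Cygb) on probes detected on all arrays and 3 to 4 when 1 array was left out. For WT1-intermediate against WT1-negative cells, the 4 became 2 (Des and Cygb) on probes detected on all arrays and 4 to 5 when 1 array was left out. On probes detected on all arrays, fewer members are tested. Elsewhere the cause was not tested. Pairing the in vivo arrays by a replicate block, fixed or random, left the counts at 2, 4 and 4 with the same markers, and the fixed block could be fitted only for WT1-high against WT1-intermediate cells (Cygb 0.025).

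Differences that changed sign were all uncalled. WT1-high against WT1-intermediate gave -0.018 for Vim with the mean of the kept probes, 0.054 for Reln without WT1-intermediate array 8 (-0.36 to 0.054 over arrays left out), and 0.066 for Cygb under median scaling. WT1-high against WT1-negative gave -0.034 for Des under median scaling, -0.32 without WT1-high array 8 and -0.083 without WT1-negative array 3 (-0.32 to 0.41 over arrays left out). WT1-intermediate against WT1-negative gave 0.037 for Vim with the mean of the kept probes. For Hgf it gave 0.10 under cyclic loess, 0.036 with the mean of the kept probes, 0.25 without WT1-intermediate array 30, 0.041 without WT1-negative array 3 and 0.036 without WT1-negative array 14 (-0.36 to 0.25 over arrays left out). Of 21 differences, 10 were called, and 6 of these held in every alternative that gave a value. Signals near background limit Reln, Ngfr and Hgf, and the called differences of Ngfr and Hgf shrank with an offset of 50.

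The number of genes called over the whole array moved too. Between WT1-high and WT1-intermediate cells, 733 probes were called, against 2164 under median scaling, 1749 and 1802 with a random replicate block, 335 without the filter, 459 without background correction and 339 when only the groups compared were fitted. Calls in the gene lists moved most in that comparison, where over 21 alternatives they ran from 0 to 7 for mesothelial (1 called), 0 to 7 for endothelial (2), 0 to 6 for other filament (0), 1 to 4 for other stellate cell (3) and 5 to 11 for macrophage genes (8).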
